A study of Mus musculus with 6 samples.

Results

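The Rab GTPase genes were followed in megakaryocytes, the large blood cells that shed platelets, grown from mouse fetal liver with and without p45, the blood-restricted partner of the dimeric DNA-binding protein NF-E2. A member was any gene whose symbol, found through the RefSeq accession of its array probe, is Rab followed by a number and an optional letter. By this rule 55 genes with 95 probes were on the array, of 59 such symbols in the RefSeq gene table. Of these, 48 genes with 80 probes had a probe that cleared the background limit throughout 1 group or both and were tested, among 18211 genes tested in all. The 4 symbols with no probe named here were Rab4a, Rab7, Rab36 and Rab44, and the 7 genes on the array that did not pass the background filter were Rab3b, Rab3c, Rab6b, Rab9b, Rab25, Rab39b and Rab40b.

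Both groups came from fetal livers at E13.5 (days of embryonic development) on the C57BL/6 strain, 3 cultures labelled p45-/- and 3 labelled WT, each on its own single-colour array from 500 ng of total RNA. The genotype is the only labelled difference, and the labels name no promoter, Cre or treatment. The labels' extraction step speaks of whole embryos while the source is cultured megakaryocytes, and this is not resolved here. The series' design counts 3 independent experiments.

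Rab proteins are small GTPases that switch between a GTP-bound form on membranes and a GDP-bound form held in the cytosol. Each marks a particular compartment, where it recruits tethers, motors and fusion factors. In megakaryocytes and platelets they matter for building, moving and releasing the alpha and dense granules. Rab27a and Rab27b are known for docking granules for release, with Rab27b the form best known from platelets, and Rab32 and Rab38 are known for building lysosome-related organelles such as dense granules and melanosomes. NF-E2 drives late megakaryocyte maturation and platelet release.

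The cultures carried the transcripts that define the labelled cell type. All 12 megakaryocyte markers were well above background on all 6 arrays, with a summed signal of 1169 to 2074 times the array's 75th percentile in WT and 956 to 2007 in p45-/-. The lowest sum of these markers in each group, 1169 and 956, was on its replicate 1 array. Of these markers 10 of 12 had lower means in p45-/-, with a median difference of -0.40, and 0 passed limma's test across all genes. The lowest were the platelet collagen receptor Gp6 at -6.09 (SE 0.92, limma adjusted p = 0.287) and the glycoprotein Gp5 at -1.32 (SE 0.83). The 75th percentile of the signal itself was 135 on p45-/- array 1 and 339 to 589 on the other arrays. Because this value is subtracted, a signal at background reads higher on that array. The Rab3c probes, above the background limit on no array, differed by 0.86 and 0.84 in pair 1. How much of the pair 1 values of dim probes this makes up was not tested. Array 1 of p45-/- stood apart: its Pearson correlation with the other arrays across genes was 0.782 to 0.884, against 0.941 to 0.984 among the others, and genes are not independent replicates. The probe of Nfe2, the gene for p45, read -0.17 (SE 0.57, limma adjusted p = 0.923) in p45-/- minus WT. Its place relative to the deleted part is unknown, so it does not check the genotype labels.

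Because p45 acts on DNA, the promoters of the members with the largest differences are shown first. The RefSeq promoter table (build GRCm38.p6, 250 bases before to 50 bases after a start) held 60 promoters of 48 Rab genes, 40 of them among the 48 tested. Tested genes with no entry in the table were Rab2a, Rab7b, Rab18, Rab26, Rab27b, Rab30, Rab37 and Rab38. Written 5′ to 3′, with capitals marking each GATAA (the GATA factor box) or GGGCGG (the GC box) on either strand, the windows of Rab8b and of the 2 Rab13 starts read as follows.
Rab8b, chr9:66919656-66919955, minus strand: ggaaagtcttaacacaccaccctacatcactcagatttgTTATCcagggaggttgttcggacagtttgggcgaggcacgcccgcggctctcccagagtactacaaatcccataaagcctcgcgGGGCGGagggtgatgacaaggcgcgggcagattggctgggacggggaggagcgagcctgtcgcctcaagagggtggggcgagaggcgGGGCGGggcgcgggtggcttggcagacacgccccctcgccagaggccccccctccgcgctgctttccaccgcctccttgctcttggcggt
Rab13, chr3:90213465-90213764, plus strand: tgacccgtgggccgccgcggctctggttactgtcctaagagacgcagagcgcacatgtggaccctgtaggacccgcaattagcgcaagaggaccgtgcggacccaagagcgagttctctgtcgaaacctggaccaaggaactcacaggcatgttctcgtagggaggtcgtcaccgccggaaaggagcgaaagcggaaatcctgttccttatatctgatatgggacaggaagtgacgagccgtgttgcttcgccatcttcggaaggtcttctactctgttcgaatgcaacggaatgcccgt
Rab13, chr3:90220534-90220833, plus strand: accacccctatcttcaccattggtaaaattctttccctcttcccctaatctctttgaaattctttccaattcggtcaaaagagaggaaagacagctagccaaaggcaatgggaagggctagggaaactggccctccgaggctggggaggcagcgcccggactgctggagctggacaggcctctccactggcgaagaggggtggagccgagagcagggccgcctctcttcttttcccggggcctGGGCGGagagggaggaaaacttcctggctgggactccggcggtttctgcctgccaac
The Rab8b window held 1 GATAA and 2 GGGCGG, and the Rab13 windows held 1 GGGCGG in all. The core TGAGTCA, which NF-E2 and AP-1 sites share, was searched on both strands and was in 3 Rab promoters (5.0%), those of Rab15, Rab34 and Rab39b, against 5.20% of all 32851 promoters. The fuller NF-E2 site, TGC directly before this core or before its reverse complement TGACTCA, was in 0 of the 60 Rab promoters, against 0.155% and 0.137% of all. The core alone lies as follows in Rab15 and Rab34, the tested genes among the 3, in capitals on either strand.
Rab15, chr12:76818603-76818624, minus strand: ggaaaTGACTCAaaccatcagg
Rab34, chr11:78188359-78188385, plus strand: gcagactctaTGAGTCAtgtgccaggc
The Rab15 match starts 245 bases and the Rab34 match 58 bases before the start. GATAA was in 12 Rab promoters (20.0%, against 25.4% of all) and GGGCGG in 41 (68.3%, against 35.7% of all). These are letter matches in short windows, and no binding was measured here.

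Most Rab transcripts had lower mean levels in the p45-/- cultures, and none of these differences passed the test across all genes. Of the 48 genes, 38 had a lower group mean and 10 a higher one, with a median difference of -0.30 on the log2 scale. Of all genes tested, 53.5% had a lower mean and their median was -0.05. This all-gene share depends on dim probes, with 34.2% lower and a median of 0.30 when dim probes are not filtered out. Genes of like brightness were not compared. Lower means were not particular to the Rab genes. They were held by 50 of 66 tested partner genes (median -0.27) and by 6 of 6 Rab-like genes outside the naming rule (median -0.29), described below. The largest lower values of the Rab family were those of Rab13 and Rab8b, which direct carriers to the cell surface, followed by Rab27b. The largest higher values of the family were those of Rab26 and Rab42. A difference here is p45-/- minus WT in log2 processed signal after each array's 75th percentile is subtracted, so -1 is a 2-fold lower signal. At least 2-fold lower were 3 of the 48 (Rab13, Rab8b and Rab27b), against 3.68% of all genes, and at least 2-fold higher were 2 (Rab26 and Rab42), against 14.6%.

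Without a block, limma called 0 Rab genes lower and 0 higher at an adjusted p under 0.05, and it called 0% of all genes in each direction. At an unadjusted p under 0.05, 3 Rab genes were lower (Rab8b, Rab13 and Rab3d) and 0 higher, against 3.33% of all genes lower and 2.62% higher. The smallest adjusted p in the family was 0.380, for Rab8b. With the replicate number as a block, 0.0275% of all genes were called lower and 0% higher, and 0 Rab genes. The count at an unadjusted p under 0.05 then became 5 Rab genes lower, with Rab27b and Rab22a added, against 5.96% of all genes, and 1 higher, Rab26, against 14.3%. The groups did not overlap, every p45-/- array being below every WT array, for 9 of the 48 genes (18.75%), against 8.44% of all genes. For 0 of the 48 every p45-/- array was above every WT array, against 4.78%.

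The size of the family's shift depended on the pair of arrays. Same-numbered arrays were compared as pairs, since their deviations from the group means correlated, at 0.647, 0.589 and 0.270. Array 3 of p45-/- correlated more closely with WT array 2 (0.616), and the pairing was taken from these same values. In pair 1 the median Rab difference was -0.84, with 41 of 48 genes lower, where 62.7% of all genes were lower and their median was -0.37. In pair 2 it was -0.07 with 26 lower (41.5% of all genes, median 0.12), and in pair 3 it was -0.17 with 33 lower (42.8% of all genes, median 0.06). Lower in all 3 pairs were 22 Rab genes (45.8%), against 23.6% of all genes, and higher in all 3 were 3, against 23.3%. Without replicate 1 of both groups the family median was -0.10, with 31 genes lower, and that of all genes was 0.09. That fit called 0 Rab genes, against 0.0769% of all genes lower and 0.022% higher. At an unadjusted p under 0.05 it held 8 Rab genes lower, against 6.51% of all genes, and 5 higher, against 13.1%. By role the median difference was -0.21 for regulated secretion (9 genes), -0.33 for surface carriers, cilia and recycling (15), -0.31 for early endosomes (7), -0.14 for late endosomes and lysosomes (5) and -0.35 for the endoplasmic reticulum and Golgi (12). In a bulk culture, fewer cells of a type and less RNA per cell cannot be told apart.

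**Figure D1:**
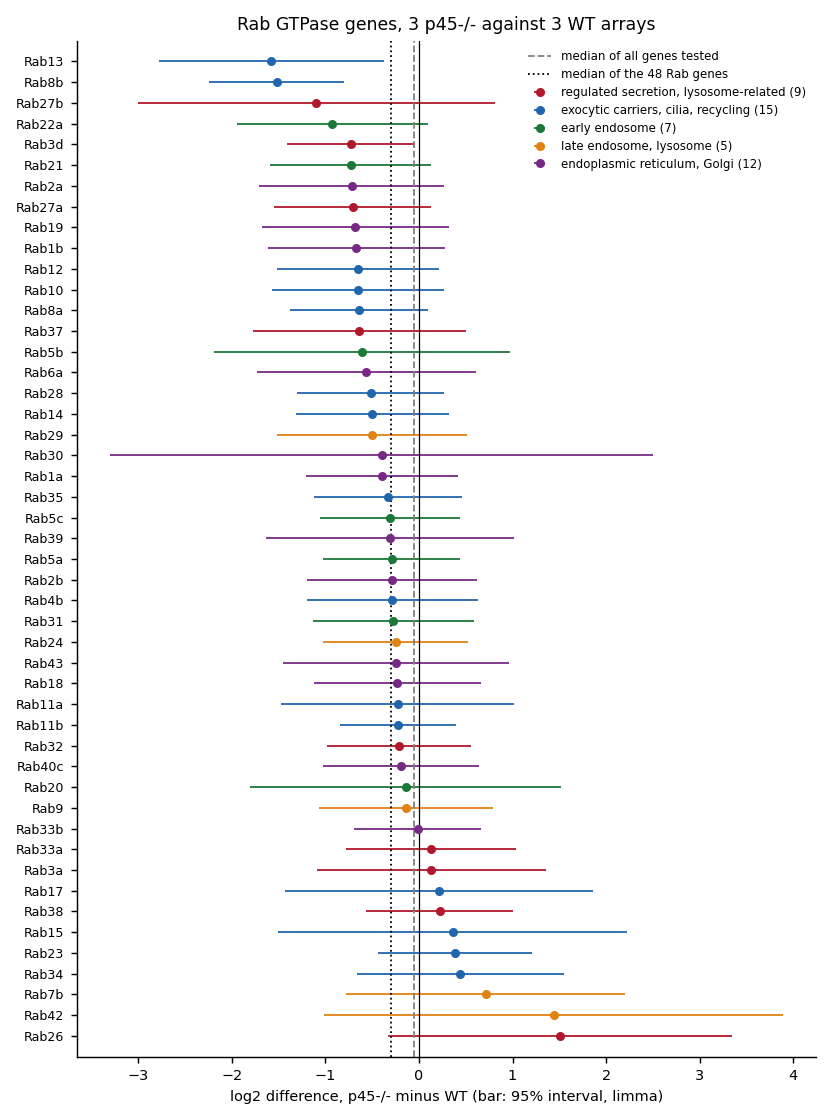
Log2 difference, p45-/- minus WT, of the 48 tested Rab genes (points, n = 3 arrays a group) with limma's 95% interval (bars), coloured by role; the dashed line is the median of all genes tested, -0.05, and the dotted line that of the family, -0.30. Rab13, Rab8b and Rab3d have intervals wholly below 0, and Rab26 and Rab42 lie farthest to the right with wide intervals.

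**Figure D2:**
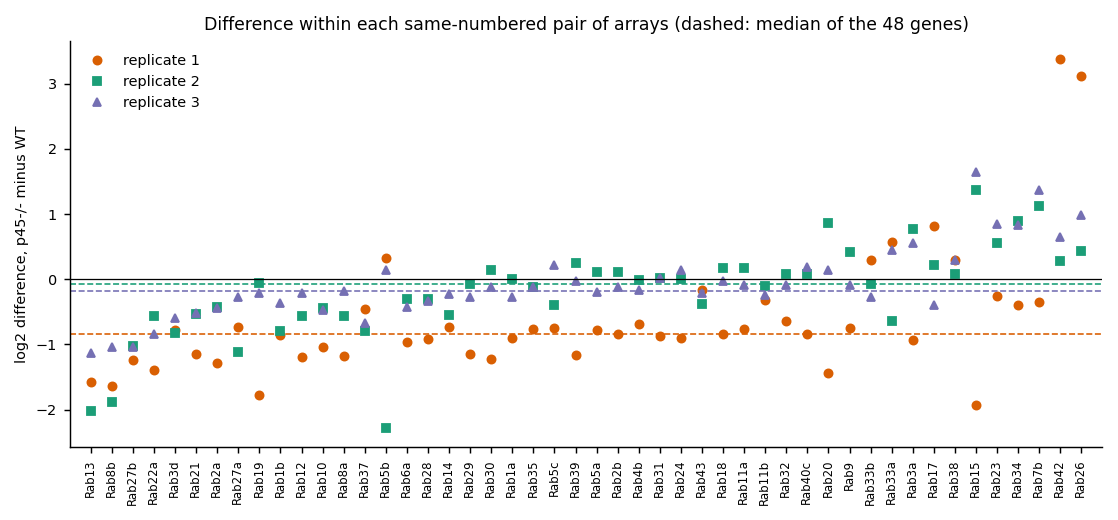
Log2 difference within each same-numbered pair of arrays for the 48 tested Rab genes, ordered by their mean difference; each colour and shape is 1 pair and dashed lines are the pair medians, -0.84, -0.07 and -0.17. For most genes the replicate 1 pair lies lowest, while the 3 points of Rab27b lie close together near -1.

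Among the Rabs of regulated secretion, Rab27b had the lowest mean difference. Its log2 level was 1.64, 3.55 and 3.62 on WT arrays 1, 2 and 3, and 0.40, 2.53 and 2.58 on p45-/- arrays 1, 2 and 3. Both replicate 1 arrays were low and the groups overlap, because WT array 1 lay below p45-/- arrays 2 and 3. The summed megakaryocyte markers were also lowest on the replicate 1 array of each group. So was Nfe2, at 5.24 in WT and 4.87 in p45-/-. Whether these patterns are linked was not tested. Within each pair Rab27b was lower in p45-/- by about the same amount, with differences of -1.24, -1.02 and -1.03. The mean difference was -1.10 (SE 0.80), with a 95% interval of -3.00 to 0.81 and a limma adjusted p of 0.704. This 2.14-fold lower signal does not exceed the spread between replicates in the fit without a block. With the replicate block the same difference had an SE of 0.28 (95% interval -1.78 to -0.41) and a limma adjusted p of 0.132, with p45-/- lower in 3 of 3 pairs. Rab13 and Rab8b had smaller limma adjusted p-values with this block, 0.115 and 0.118. The SD of its 3 pair differences, 0.12, was the third smallest of the 48 genes, behind Rab11b and Rab43. The second Rab27b probe, dimmer and below the background limit on 1 array, gave -0.71, with -0.63, -0.42 and -1.07 in the pairs.

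Set against the rest of the family, Rab27b was lower than the typical member in each pair. The median difference of the other 47 genes was -0.29, and Rab27b lay 0.81 below it. Its distance from that median was -0.39, -0.96 and -0.87 in pairs 1, 2 and 3, so it stood nearest to the family in the pair where most Rab genes were low. Of the 48 mean differences, those of Rab13 and Rab8b were lower, and Rab27b was the 3rd lowest. Without p45-/- replicate 1 it was the 13th lowest, and without replicate 1 of both groups it was the 4th lowest. The distance of Rab27b ranged from -1.39 to -0.25 when single arrays were left out, -0.25 without p45-/- replicate 1, -0.42 without WT replicate 3, -0.48 without WT replicate 2 and -1.39 without WT replicate 1. Leaving out replicate 1 of both groups together gave -0.93. The Rab27b difference itself was -0.38 without p45-/- replicate 1, where the low WT array 1 has no counterpart, and -1.75 without WT replicate 1. Within the slide that holds replicates 1 and 2 it was -1.13, and within the slide of replicate 3 it was -1.03, with 1 array a group.

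Rab27a, the closest relative of Rab27b and the form that docks lytic granules and melanosomes, was also lower in each pair, less evenly. Its levels were 1.54, 2.21 and 1.92 on the WT arrays and 0.81, 1.10 and 1.64 on the p45-/- arrays. The groups overlap by a small margin, p45-/- array 3 lying above WT array 1. The pair differences were -0.73, -1.12 and -0.28, and the mean was -0.71 (SE 0.35, limma adjusted p = 0.704), with -0.55 from its other probe. The difference of Rab27b was 0.39 lower than that of Rab27a, which an exact permutation test over the 6 arrays did not separate from 0 (two-sided p = 0.6, where 0.1 is the smallest p possible with 3 against 3). That test takes no account of the pairs, in which the contrast was -0.51, 0.10 and -0.76. Without p45-/- replicate 1 this contrast turned to 0.14, and without replicate 1 of both groups it was -0.33.

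Rab38 and Rab32, the pair that builds lysosome-related organelles, had mean differences smaller in size than that of Rab27b. Rab38 levels were 1.11, 1.42 and 1.74 in WT and 1.40, 1.49 and 2.03 in p45-/-, so the p45-/- array was the higher in each pair, by 0.30, 0.08 and 0.29. On average it was 0.22 higher (SE 0.33, 95% interval -0.56 to 1.00), at a limma adjusted p of 0.822. Median scaling turned it to -0.29, where all genes had a median of -0.56. Rab32 read 3.83, 3.93 and 3.90 in WT and 3.19, 4.02 and 3.82 in p45-/-, so p45-/- array 1 alone was low. Rab32 differed by -0.21 (SE 0.32, 95% interval -0.98 to 0.55), at a limma adjusted p of 0.824, and without p45-/- replicate 1 it was 0.03. The mean difference of Rab27b lies below both of these intervals, but its own wider interval, -3.00 to 0.81, contains both of their means. Whether their differences from that of Rab27b exceed the replicate spread was not tested.

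The other secretory Rabs split by direction. Rab3d, which sits on secretory granules of exocrine and mast cells, had levels of 1.59, 1.59 and 1.14 in WT and 0.82, 0.76 and 0.55 in p45-/-. Every p45-/- array lay below every WT array. Rab3d differed by -0.73 (SE 0.29, 95% interval -1.41 to -0.05), at a limma adjusted p of 0.704, with pair values of -0.78, -0.83 and -0.59. Rab37, known from mast cell and insulin granules, followed the array pattern of Rab27b: 0.36, 1.66 and 1.52 in WT and -0.09, 0.86 and 0.85 in p45-/-, with low replicate 1 arrays in both groups. It differed by -0.64 (SE 0.48), and by -0.45, -0.79 and -0.66 in the pairs, and its second probe gave -0.87. Rab3a, the synaptic vesicle form, differed by 0.13 on average but by -0.94 in pair 1 and by 0.78 and 0.56 in the others. Rab33a differed by 0.13 (SE 0.38), with both signs among the pairs.

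Rab26, which acts on secretory granules of exocrine cells, had the highest mean difference of the family, 1.51 (SE 0.77, 95% interval -0.33 to 3.35, limma adjusted p = 0.704). Its levels were -4.27, -3.91 and -4.98 in WT and -1.16, -3.47 and -4.01 in p45-/-. Most of the mean comes from p45-/- array 1, since the pair differences were 3.11, 0.44 and 0.98. Its probe was dim but well above background on all 6 arrays.

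Marker transcripts of granulocytes and mast cells, which hold secretory Rabs of their own, had mostly lower means, and 0 markers of any list passed limma's test across all genes. The smallest adjusted p of any marker was 0.278, for the erythroid Trim10. All 8 neutrophil markers had lower means in p45-/-, with a median of -0.84 and a summed signal of 384 to 638 times the 75th percentile in WT and 239 to 361 in p45-/-. Of 8 tested mast cell and basophil markers 5 were lower, with a median of -0.86, and the sum was 13.1 to 31.2 in WT and 4.83 to 17.8 in p45-/-. Among them the basophil protease Mcpt8 differed by -1.65 and the mast cell carboxypeptidase Cpa3 by -1.16, while Tpsb2 was 0.66 higher. The macrophage list differed by a median of 0.00 with 4 of 7 lower. Erythroid markers differed the other way, 1 of 12 lower with a median of 1.77, and their sum reached 2191 on p45-/- array 1, against 352 to 836 in WT. The highest erythroid sum in WT, 836, was on array 1. The part of these cell types, and of the lower megakaryocyte markers, in the Rab differences was not tested. Of 5 markers of melanocytes, cells rich in Rab27a, Rab32 and Rab38, 1 passed the background filter. Of 8 hepatoblast markers 0 were lower (median 1.07), of 8 stromal and endothelial markers 1 was lower (median 0.42), and 2 of 5 lymphoid markers were tested, neither lower.

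**Figure D3:**
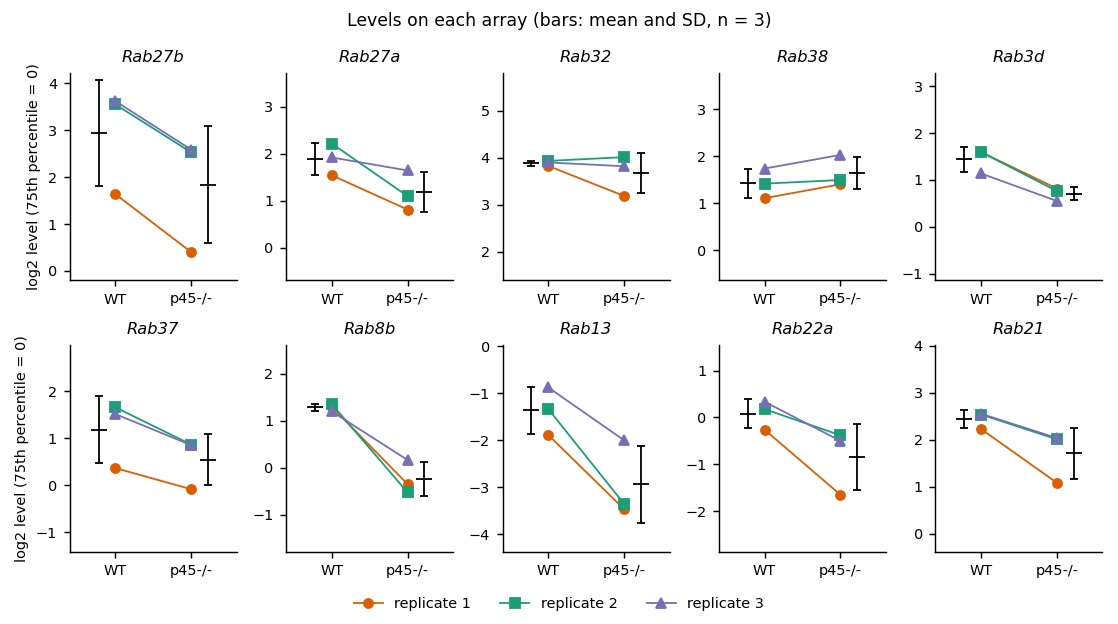
Log2 level of 10 Rab genes on each array (0 is the array's 75th percentile; every panel spans the same range), with lines joining same-numbered WT and p45-/- arrays and bars giving the mean and SD of 3 arrays. Rab27b and Rab37 have near-parallel lines from WT down to p45-/- with a low replicate 1 pair. Rab8b, Rab3d, Rab13, Rab22a and Rab21 separate the groups. Rab38 stays near level, and Rab32 does so except in the replicate 1 pair, where it falls.

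The carriers to the cell surface held the largest lower values. Rab8b, which moves vesicles from the Golgi to the plasma membrane, read 1.30, 1.35 and 1.20 in WT and -0.35, -0.53 and 0.16 in p45-/-. The WT arrays lay within 0.08 (SD) of their mean and every p45-/- array was about 1 log2 unit or more below them. Rab8b differed by -1.52 (SE 0.30, 95% interval -2.24 to -0.80), at a limma adjusted p of 0.380, and 0.118 with the replicate block. The Rab8b difference is a 2.87-fold lower signal, with -1.65, -1.88 and -1.03 in the pairs. Its 3 probes gave -1.52, -1.54 and -1.24. Rab8b was the one family member called under any alternative, at a limma adjusted p of 0.0305 with array weights, which called 1.35% of all genes lower. Rab8a, its near relative, differed by -0.64 (SE 0.31), with every p45-/- array (1.55, 1.73 and 1.83) below every WT array (2.73, 2.29 and 2.02).

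Rab13, which carries cargo to cell junctions and the leading edge, had the lowest mean difference of the family. It read -1.88, -1.33 and -0.87 in WT and -3.46, -3.35 and -2.00 in p45-/-, with a narrow gap between the lowest WT and the highest p45-/- array. Rab13 differed by -1.58 (SE 0.50, 95% interval -2.77 to -0.38), at a limma adjusted p of 0.701, and 0.115 with the replicate block. The pair values were -1.58, -2.02 and -1.12. With normexp background correction the Rab13 difference was -0.44.

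The other 12 genes of this role ranged from -0.65 to 0.44. Rab12 and Rab10 lay at -0.65 each, Rab28 at -0.52 and Rab14, a Golgi to endosome Rab, at -0.50, all lower in all 3 pairs. The recycling Rabs were closer to 0, with Rab35 at -0.33, Rab4b at -0.29, Rab11a at -0.23 and Rab11b at -0.22. Rab11b had tight values, 3.51, 3.58 and 3.57 in WT against 3.20, 3.47 and 3.32 in p45-/-, and so its groups did not overlap although the difference was small. In all, 10 of the 15 genes of this role were lower in all 3 pairs. Of the 4 with higher means, Rab15 had the widest spread of the family, with pair values of -1.93, 1.36 and 1.64 and an outlying WT level of 2.72 on array 1 against 0.47 and -0.24. Rab34 and Rab23, which act at cilia, were lower in pair 1 (-0.39 and -0.25) and higher in pairs 2 (0.89 and 0.55) and 3 (0.83 and 0.85). Rab17, an epithelial Rab near the background limit, differed by 0.21 (SE 0.69), with 0.82, 0.21 and -0.39 in the pairs.

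The early endosome Rabs were all lower in mean, and 2 of the 7 were lower in all 3 pairs. Rab22a, which sorts endosomal cargo, read -0.26, 0.18 and 0.34 in WT and -1.65, -0.38 and -0.50 in p45-/-, without overlap, and differed by -0.93 (SE 0.43, limma adjusted p = 0.704). Its second probe gave -0.98. Rab21, which acts in integrin uptake, read 2.23, 2.53 and 2.55 in WT and 1.08, 2.01 and 2.03 in p45-/-. It differed by -0.73 (SE 0.36, limma adjusted p = 0.704), with pair values of -1.15, -0.53 and -0.52. Without p45-/- replicate 1 the difference was -0.52 for Rab22a and -0.42 for Rab21. The Rab5 forms that drive early endosome fusion stood nearer to 0 in 2 of 3 cases, Rab5a at -0.29 and Rab5c at -0.31. Rab5b, at -0.61 (SE 0.66), rests on a single high WT array, with WT levels of -3.40, -1.62 and -4.07. Its second probe gave -0.29, with -0.10, -0.57 and -0.20 in the pairs. Rab31 differed by -0.27, and Rab20, a phagosome Rab, by -0.14 with pair values from -1.44 to 0.86.

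The 5 late endosome and lysosome Rabs showed no common direction. Rab29, which recruits the kinase LRRK2 to membranes, differed by -0.50, Rab24 of autophagy by -0.25 and Rab9, which returns cargo from endosomes to the Golgi, by -0.14. In each of these the lowest pair value was in pair 1, at -1.15, -0.89 and -0.75. Rab7b differed by 0.71 (SE 0.62), from WT levels of 5.92, 4.23 and 3.55 to 5.57, 5.36 and 4.92, lower in pair 1 and higher by 1.12 and 1.37 in the others. Rab42 differed by 1.44 (SE 1.02), a value carried by p45-/- array 1, which read 0.56 against -3.49 and -2.69 on the other p45-/- arrays and -2.82, -3.78 and -3.34 in WT.

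All 12 Rabs of the endoplasmic reticulum, Golgi and related sites had lower means, from -0.72 to -0.02, with medians of -0.88, -0.03 and -0.21 in the 3 pairs. Rab2a, Rab1b and Rab6a, which serve traffic between the endoplasmic reticulum and the Golgi or back, differed by -0.72, -0.67 and -0.56, lower in every pair. Rab1a differed by -0.39, with 0.00 in pair 2, and Rab18 by -0.23. Rab19 read 1.52, 0.98 and 1.14 in WT and -0.26, 0.93 and 0.93 in p45-/-, a difference of -0.68 (SE 0.42, limma adjusted p = 0.704). It was -0.28 without p45-/- replicate 1 and -0.13 without replicate 1 of both groups. Rab30 varied most here, with -2.80 and -4.02 on the replicate 1 arrays against -0.46 to -0.08 on the other 4, and was below the background limit on p45-/- array 1. The rest, Rab2b, Rab33b, Rab39, Rab40c and Rab43, lay between -0.31 and -0.02.

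More than 1 probe passed the background filter for 25 of the 48 genes, and all probes of each such gene lay on the same side of 0. The widest disagreement, 0.83, was between the probes of Rab34, at 0.44 and 1.27, which had opposite signs in pair 1 (-0.39 and 2.18). The 7 Rab genes that did not pass the filter were well above background on at most 2 of 3 p45-/- arrays by any probe, and get no fold.

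Partners of the Rab proteins were taken from 5 lists of effectors, regulators and granule factors, 66 tested genes in all. None passed the test in either direction, with or without the block, at 0% (no block) and 0.0275% lower (block) of all genes. Of the 66, 50 had lower means with a median of -0.27, where 53.5% of all genes were lower. Below WT without overlap were 12 of the 66, where 8.44% of all genes were, and 0 were above WT without overlap, where 4.78% of all genes were. Their pair medians were -0.79, 0.03 and 0.00, so the shift, like that of the Rab genes, was largest in pair 1.

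Of the Rab27 effectors and release factors, which link Rab27 on a granule to the release site, 6 of 13 were tested and 5 had lower means. Stx11, a syntaxin of platelet and lymphocyte granule release that acts beside them, read 2.18, 3.61 and 3.56 in WT and 0.45, 2.24 and 1.98 in p45-/-. The replicate 1 arrays were low in both groups, as for Rab27b, and the groups overlap. It differed by -1.56 (SE 0.62, limma adjusted p = 0.704, and 0.0999 with the replicate block), with pair values of -1.73, -1.37 and -1.58. Sytl1, a synaptotagmin-like effector, differed by -0.87 (SE 0.50), and the platelet effector Sytl4 by -0.50 (SE 0.71), mostly from pair 1 at -1.17. Unc13d, which encodes the priming factor Munc13-4, differed by -0.31 (SE 0.44). Sytl3 differed by 1.19 (SE 1.23), through p45-/- array 1 at 0.33, against -3.46 and -4.48 on the other p45-/- arrays.

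Regulators of Rab27 and Rab3 were close to 0 as a list, with 7 of 10 lower and a median of -0.17. The GTPase-activating proteins Tbc1d10b and Tbc1d10c differed by -0.70 and -0.59, and Madd, an exchange factor for both, by -0.61 with lower values in all 3 pairs. Evi5, on this list although its action on Rab27 or Rab3 was not examined, differed by 1.43 (SE 0.98). Rab3il1, an exchange factor, differed by 0.66.

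Of 20 tested partners of Rab32 and Rab38 and other builders of platelet granules, 17 had lower means, with a median of -0.34. Vps33b, which alpha granules need, read 3.17, 4.41 and 4.52 in WT and 1.64, 2.77 and 2.71 in p45-/-, without overlap. It differed by -1.66 (SE 0.51, limma adjusted p = 0.672, and 0.0890 with the block), with pair values of -1.53, -1.64 and -1.81. Nbeal2, mutated in gray platelet syndrome, differed by -1.03 (SE 0.44), with -0.93, -1.20 and -0.96 in the pairs. The kinases Lrrk2 and Lrrk1 differed by -1.19 (SE 0.41) and -0.77 (SE 0.38), both without overlap. Hps1 and Hps4, the exchange factor for Rab32 and Rab38, differed by -0.44 and -0.09, and Ankrd27, their effector, by -0.33.

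In the 6 tested genes of Rab prenylation and membrane extraction the range was -0.52 (Rabac1) to 0.24 (Rabggtb), and Gdi2, which extracts Rab proteins from membranes, was at -0.26. Among 24 endosomal exchange factors and effectors, 17 were lower with a median of -0.25. Rin3, an exchange factor of the Rab5 group, stood out by its unadjusted p, the smallest of all partners at 0.00279. It read 1.87, 2.94 and 2.53 in WT and 0.69, 0.93 and 0.81 in p45-/-, without overlap, and differed by -1.64 (SE 0.35, limma adjusted p = 0.422). Rabep2 and Rabgef1, an effector and an exchange factor of Rab5, differed by -0.85 and -0.74 without overlap, and Rin1 by 0.70.

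**Figure D4:**
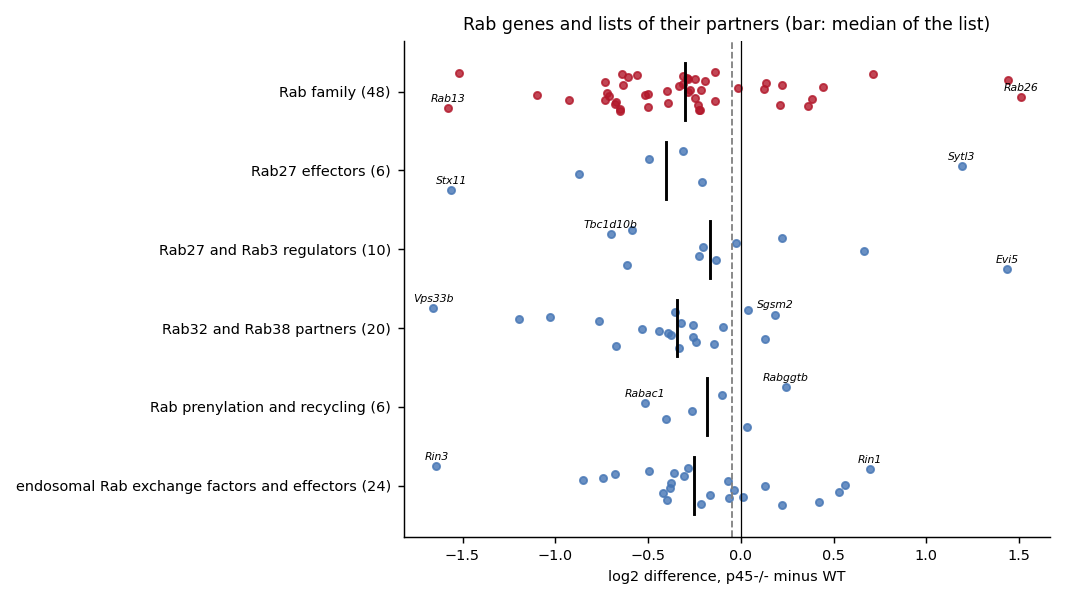
Log2 difference, p45-/- minus WT, of the 48 Rab genes (red) and of each partner list (blue, number of genes in brackets), a point per gene, with a black bar at the list's median and a dashed line at the median of all genes tested, -0.05. List medians lie between -0.40 and -0.17, and Vps33b, Rin3 and Stx11 lie farthest to the left among the partners.

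**Figure D5:**
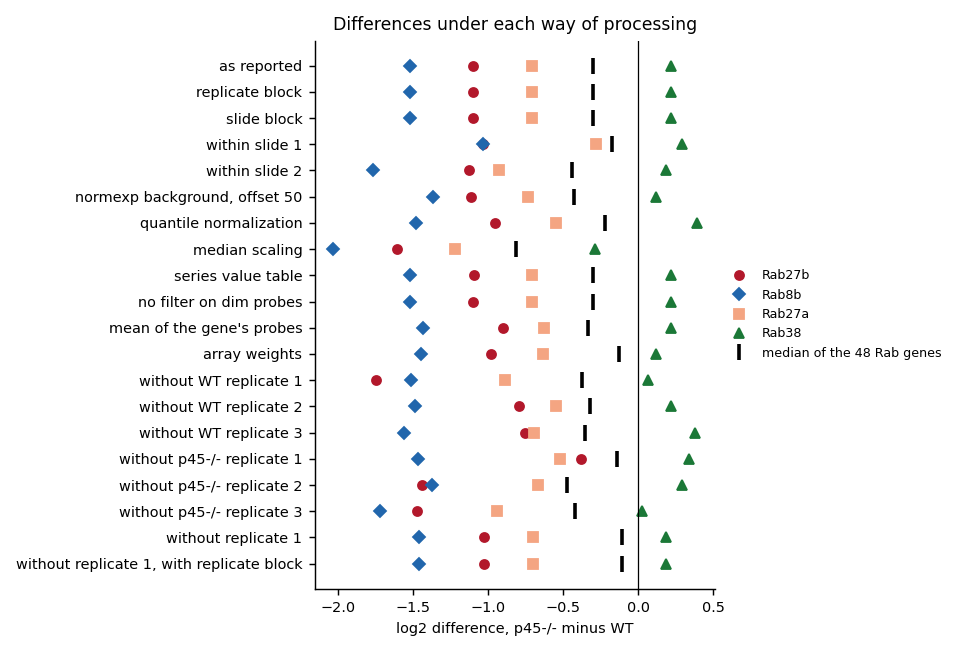
Log2 difference, p45-/- minus WT, of Rab27b, Rab8b, Rab27a and Rab38 and the median of the 48 Rab genes (bars) under each way of processing the arrays. Rab27b ranges from -1.75 to -0.38 and Rab8b from -2.03 to -1.03, both below 0 throughout, while Rab38 crosses 0 with median scaling.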

How the data were processed

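Per the file headers, Feature Extraction 10.7.3.1 from Agilent read the spot intensities (the submitters' processing notes name 10.1). The deposited processed intensity is linear, background-subtracted and detrended within its array, and not scaled between arrays. The raw median spot and background intensities, also deposited by the authors, served the normexp alternative, in place of mean signals. The deposited value table of the series matched these processed values within 0.497%, with column medians of 20.9 to 42.0.

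From these, log2 values minus each array's 75th percentile were taken, without control spots and with outlier-flagged spots set to missing. No Rab value was missing, and 0 spots were saturated. Probes well above background throughout 1 group or both were kept, 23958 of 41174. RefSeq accessions named 26690 probes (gene table of assembly GRCm38.p6, names only, since the headers name mm9). A gene's probe with the highest mean stood for it. Groups were compared with limma 3.58.1 in R 4.3.3 over 18211 genes, two-sided, with Benjamini-Hochberg adjustment at 0.05 and 4 residual degrees of freedom. The replicate block (2 residual degrees of freedom) moved the count of calls over all genes. Its adjusted p is given for Rab27b, Rab13, Rab8b, Stx11 and Vps33b. Deviations of same-numbered arrays correlated at 0.647, 0.589 and 0.270, all above 0.1, so same-numbered arrays were treated as pairs on this basis alone, although p45-/- array 3 correlated more closely with WT array 2 (0.616). Slide 1 held the replicate 3 arrays and slide 2 the rest, and slide and scan coincide.

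Rab members, roles, partner lists and markers were chosen with earlier results of these data known, and no adjustment over a list alone was made. Named in full were Rab27b, Rab27a, Rab38, Rab32 and the 6 members with the largest difference without overlap. Of each partner list up to 4 genes with the smallest unadjusted p were to be named. Other partner and marker genes, such as Sytl4, Hps1, Mcpt8, Cpa3 and Tpsb2, were chosen after their values were seen. The p-values measure the spread between 3 arrays a group, and the number of arrays limits the precision.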

Additional observations from a re-analysis of the deposited data

How the results depend on the processing

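With the replicate block the Rab27b difference stayed at -1.10 (limma adjusted p = 0.132), and the block changed no Rab call. Slide as a block gave -1.10, the slide 2 arrays alone -1.13, and the slide 1 arrays, with no test, -1.03. Under array weights (0.0979 for p45-/- array 1) 1 Rab gene was called lower, Rab8b. With median scaling the family median was -0.81, against -0.56 for all genes, a shift that this scaling gives every gene alike, and Rab38 turned to -0.29. The family median minus that of all genes was -0.25 as reported, -0.51 with normexp, -0.60 with no filter on dim probes and -0.19 with quantile normalization. Rab32 turned to 0.0696 with quantile normalization and to 0.0295 without p45-/- replicate 1. With quantile normalization the family median was -0.22. Over fits that leave out arrays, Rab27b ranged from -1.75 to -0.38, the family median from -0.47 to -0.10, Rab27b minus the median of the other Rab genes from -1.39 to -0.25, Rab27b minus Rab27a from -0.86 to 0.14 (above 0 only without p45-/- replicate 1), Rab32 from -0.38 to 0.03, and 0 Rab genes were called. The adjusted p of Rab27b lay between 0.108 and 0.998 over all tested alternatives. Leaving out arrays leaves 2 in a group. The directions of Rab27b, Rab27a, Rab13, Rab8b, Rab22a, Rab3d, Rab21 and Rab19 held in the alternatives run. Signal near background limits the dim probes: Rab13 was -0.44 with normexp.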

Other observations

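Of 6 tested Rab-like genes outside the naming rule, all had lower means, from -0.62 for Ift27, a cilium transport GTPase, to -0.02 for Rabl6, with a median of -0.29 and pair medians of -0.71, 0.06 and -0.01. Ift22 differed by -0.50 (SE 0.37), Rabl2 by -0.33, Rabl3 by -0.26 and Ran, the nuclear transport GTPase, by -0.10. Of these genes 0 passed limma's test over all genes, and 0 had an unadjusted p under 0.05.

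Without replicate 1 of both groups, Rab27b had the smallest unadjusted p of the 48 Rab genes, with a difference of -1.03 (SE 0.17, limma adjusted p = 0.108). The other 7 with a lower mean and an unadjusted p under 0.05 were Rab8b at -1.46, Rab37 at -0.73, Rab22a at -0.70, Rab21 at -0.52, Rab13 at -1.57, Rab3d at -0.71 and Rab1b at -0.58, where 6.51% of all genes were lower at that p. The 5 with a higher mean, where 13.1% of all genes were higher, were Rab15 at 1.50, Rab7b at 1.25, Rab34 at 0.86, Rab23 at 0.70 and Rab3a at 0.67. That fit called 0.0769% of all genes lower and 0.022% higher, and 0 Rab genes.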
